A study of Homo sapiens with 38 samples.

Results

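The GATA factor genes (GATA1 to GATA6) and the genes of their FOG cofactors (ZFPM1 and ZFPM2) were examined for binding and acetylation in stimulated Jurkat cells, an established line of human leukaemic T cells. The 8 genes were chosen by name, and every line of 3 peak lists within 50 kb of each RefSeq gene record was taken, together with every line in the 1 Mb beyond the 3′ end of the GATA3 gene. This gave 55 of 29009 GATA3 regions, 48 of 26205 BHLHE40 regions and 136 of 113570 H3K27ac regions. The study comprised 38 samples, in 19 groups of 2, of chromatin immunoprecipitation followed by sequencing (ChIP-seq), an assay that lists as peaks the places where DNA pulled down by an antibody is enriched. The 3 lists came from 3 of these groups, all of cells given the genotype Ctrl_LV, which carried a control lentivirus, and the other 16 groups were not analysed here. All were stimulated with 50 ng/ml PMA plus 500 ng/ml ionomycin, which together mimic T-cell receptor signals, for 5 hours by the sample labels and for 2 hours by the treatment protocol. Both samples of a group are represented by 1 list, so no spread between samples can be given, no test between conditions was possible and the sequencing depth is unknown. The signal value (enrichment) and the q-value of a peak are those of the authors, and both serve only to describe or rank peaks within 1 list, with rank 1 the highest signal value.

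GATA factors are zinc finger proteins that bind the DNA letters GATA and set cell identity in several tissues. GATA1 drives red blood cell and platelet formation, GATA2 maintains blood stem and progenitor cells, and GATA3 is needed for T-cell development and for the type 2 helper fate. GATA4, GATA5 and GATA6 act mainly in the heart, and in the gut and other tissues of endoderm origin. The FOG proteins act through GATA factors: they bind a zinc finger of the GATA factor and bring in other proteins, such as the repressive NuRD complex. BHLHE40 is a basic helix-loop-helix repressor that binds CACGTG and is induced on T-cell activation, and H3K27ac is a histone mark of active promoters and enhancers.

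The DNA before the members' gene starts is shown first, because it can be set beside the regions that lay over it. RefSeq sequence of GRCh38.p14 covered 11 listed starts of 5 members, namely GATA1, GATA2, GATA3, GATA6 and ZFPM1. Each sequence below gives the 250 bases before a start on the gene's strand, and capitals mark the letters GATA (or TATC on the other strand) and CACGTG. They were chosen to set a GATA3 start under all 3 lists beside GATA3 starts with a motif and beside the starts of GATA6 and ZFPM1, each under 1 factor. A start counts as under a region where the region overlaps the stretch from 250 bases before to 50 bases after it.

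GATA3 start at 8053641, chr10:8053391-8053640, plus strand, under a region of all 3 lists: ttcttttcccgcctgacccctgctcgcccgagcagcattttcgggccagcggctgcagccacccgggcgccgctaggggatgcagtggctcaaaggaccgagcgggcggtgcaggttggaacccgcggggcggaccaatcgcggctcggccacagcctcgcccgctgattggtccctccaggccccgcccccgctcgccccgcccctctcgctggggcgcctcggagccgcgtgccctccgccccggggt

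GATA3 start at 8060457, chr10:8060207-8060456, plus strand, under BHLHE40 and H3K27ac regions: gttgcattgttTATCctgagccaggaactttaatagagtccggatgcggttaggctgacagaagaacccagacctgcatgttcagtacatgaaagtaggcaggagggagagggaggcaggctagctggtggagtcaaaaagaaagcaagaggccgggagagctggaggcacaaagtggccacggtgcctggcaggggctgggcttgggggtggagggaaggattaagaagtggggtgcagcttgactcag

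GATA3 start at 8051236, chr10:8050986-8051235, plus strand, under no region: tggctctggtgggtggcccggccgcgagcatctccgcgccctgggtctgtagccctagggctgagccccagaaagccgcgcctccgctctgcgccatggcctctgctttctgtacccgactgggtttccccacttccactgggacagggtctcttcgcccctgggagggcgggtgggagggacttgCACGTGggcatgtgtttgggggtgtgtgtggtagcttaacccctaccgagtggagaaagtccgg

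GATA6 start at 22169589, chr18:22169339-22169588, plus strand, under a GATA3 region: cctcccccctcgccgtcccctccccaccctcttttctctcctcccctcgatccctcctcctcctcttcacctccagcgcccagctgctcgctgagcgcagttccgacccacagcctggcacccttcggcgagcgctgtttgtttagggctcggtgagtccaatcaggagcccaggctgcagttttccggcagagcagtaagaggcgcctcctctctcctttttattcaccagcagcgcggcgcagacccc

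ZFPM1 start at 88453280, chr16:88453030-88453279, plus strand, under a BHLHE40 region: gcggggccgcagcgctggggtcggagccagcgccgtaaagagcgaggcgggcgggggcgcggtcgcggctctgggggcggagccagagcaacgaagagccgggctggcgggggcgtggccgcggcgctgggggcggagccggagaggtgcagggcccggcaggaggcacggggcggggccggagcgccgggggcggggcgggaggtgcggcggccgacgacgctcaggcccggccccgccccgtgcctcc

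On either strand, none of the 11 member starts held AGATAA or its variant AGATAG, nor TGATAA or its variant TGATAG. Of 34961 listed starts of all genes, 22.3% hold at least 1 of these words in the same 250 bases. The letters GATA alone, which these words contain, were found at 2 of the 11 starts against 45.6% of all starts. CACGTG was found at 1 of the 11, the GATA3 start at 8051236, and at 6.35% of all starts. That start lay under no region of any list, whereas the starts under GATA3 regions, at 8053641 of GATA3 and at GATA6, held neither motif. The GATA3 summits lay 82 bp and 304 bp after those 2 starts, outside the 250 bases searched. The DNA at the summits was therefore not searched for either motif. The member starts were rich in G and C, from 55.6% to 83.2%. These matches describe letters in these windows only.

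Of the 8 members, 6 had a GATA3 region within 50 kb, where 76.3% of 19974 protein-coding genes had one. All 8 had a BHLHE40 region, where 80.2% of protein-coding genes did, and 7 had an H3K27ac region, where 92.9% did. These counts are near the background and say nothing particular about the family. What differed among members was the density, given here as regions per 100 kb of window, since the windows ran from 107.722 kb at GATA1 to 586.102 kb at ZFPM2. For the GATA3 list the order was GATA2 (7.03), GATA3 (4.62), GATA4 (2.73), ZFPM2 (1.19), ZFPM1 (1.08), GATA6 (0.752) and then GATA1 and GATA5 with none, and the median of all protein-coding genes was 0.993. A percentile is the share of protein-coding genes with a lower value, with ties split evenly. It was 98.9 for GATA2, 94.3 for GATA3 and 80.5 for GATA4, and 11.9 for GATA1 and GATA5, as for every gene with none. For BHLHE40 the densities ran from 0.752 at GATA6 to 6.15 at GATA2, with a median of 2.02 over the members and of 1.63 over all genes. For H3K27ac, GATA3 (10.0) and GATA2 (9.67) were highest, GATA6 had none, and the median over the members (4.21) was under that over all genes (5.92). ZFPM1 came after GATA2 for BHLHE40, with 3.24, and after GATA3 and GATA2 for H3K27ac, with 7.56. Restricted to a −log10 q of 5 or more, the H3K27ac order changed: ZFPM1 had 4.86 per 100 kb, GATA3 4.62, GATA1 2.78 and GATA2 2.64. The members thus spread over nearly the whole range of genes in GATA3 density, and there is no spread between samples by which neighbours in the order could be said to differ.

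**Figure D1:**
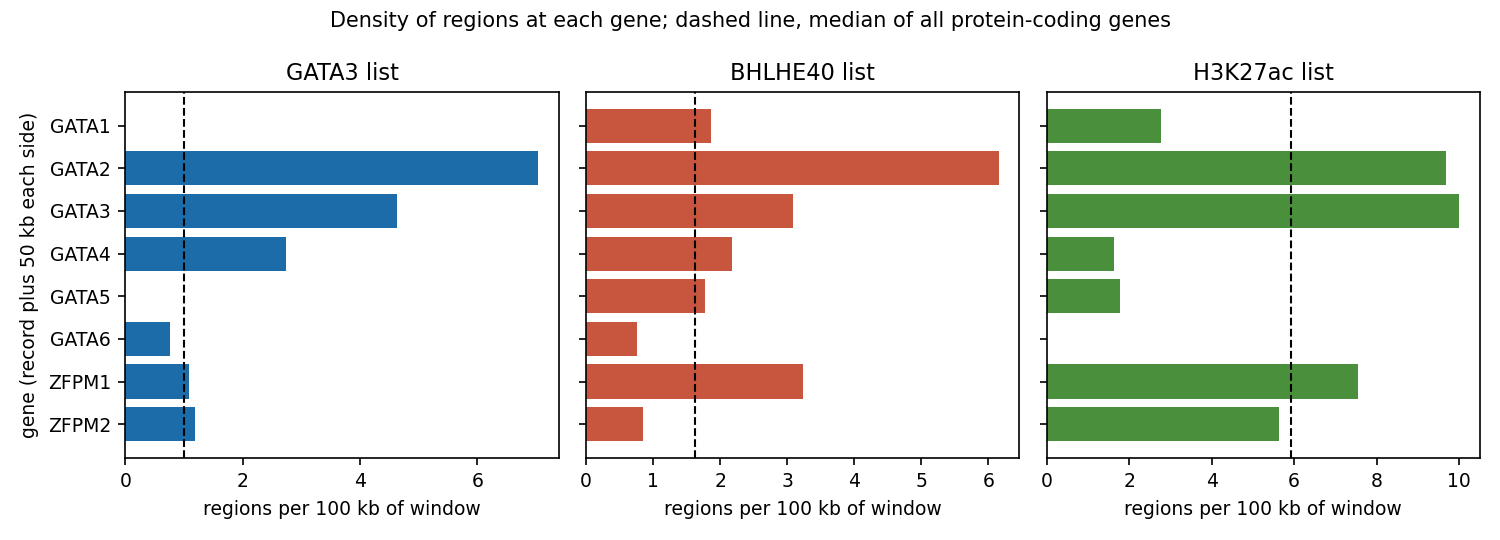
Regions per 100 kb of window (gene record plus 50 kb each side) for each of the 8 genes in the GATA3, BHLHE40 and H3K27ac lists. Bars are single values without error, since both samples of a group are represented by 1 list, and the dashed line is the median of all protein-coding genes. GATA2 has the longest bar for both factors, with 7.03 and 6.15.

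The GATA3 gene, whose record spans positions 8045333 to 8075198 of chromosome 10, held 6 GATA3, 4 BHLHE40 and 13 H3K27ac regions in the window of 50 kb each side. The strongest GATA3 region there had a signal value of 75.8, rank 571 of 29009, with its summit at 8048847, inside the gene record and before the listed start at 8049854. Its BHLHE40 partner had a signal value of 33.2, rank 1057 of 26205, and the H3K27ac region beneath the pair, from 8048465 to 8048772, had a signal value of 4.14. The start at 8053641 carried regions of all 3 lists, with both factors lower than at that pair and H3K27ac slightly higher. Its GATA3 region, from 8053346 to 8054369, had a signal value of 7.34 (rank 23821), its BHLHE40 region, from 8053255 to 8055367, one of 13.1, and its H3K27ac region, from 8053616 to 8054311, one of 4.42. The BHLHE40 summit lay 16 bp after this start and the GATA3 summit 82 bp after it. The same region holds listed starts of GATA3-AS1, a long noncoding RNA transcribed the other way, so these regions cannot be assigned to one of the genes. The BHLHE40 region also reached the stretch before the start at 8054688. Another BHLHE40 region, at 8059860 to 8061039 (signal value 12.3), had its summit 236 bp before the start at 8060457 and overlapped no GATA3 region. In the GATA3 list the gene was thus bound most strongly between listed starts, and the region over its start was among the weaker ones of that list.

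The flanks held 4 GATA3 regions, all below the strongest one and 3 of them above the one over the start. Of these, 2 lay before the gene, at 8035148 to 8035907 (signal value 15.3) and 8028407 to 8028819 (9.62), and 2 after it, at 8096006 to 8096407 (14.2) and 8122739 to 8123592 (6.73). None of these 4 overlapped BHLHE40 or H3K27ac. The strongest H3K27ac region of the window by signal value, 5.07 at 8088305 to 8088565, lay outside the gene and overlapped neither factor. Its value is at percentile 28.4 of the highest H3K27ac values at protein-coding genes, whereas the strongest GATA3 region is at percentile 95.9 and the strongest BHLHE40 region at percentile 90.7. By these percentiles the window of 50 kb each side was high for both factors and low for the height of H3K27ac. Its H3K27ac density was at percentile 78.7. By −log10 q the H3K27ac region over the start at 8053641 was above the one outside the gene, 22.4 against 10.6.

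A T-cell enhancer of GATA3 is known to lie far beyond its 3′ end. The 1 Mb downstream, positions 8075199 to 9075198, held no protein-coding record and 15 records of other kinds. GATA3 regions numbered 28 there, 2 of them the flanking ones above, BHLHE40 regions 17 and H3K27ac regions 60. The 1 Mb on the other side of the gene, with 6 protein-coding records, held 14, 11 and 56. Of the downstream summits, 24 of 28 for GATA3 (85.7%), 16 of 17 for BHLHE40 (94.1%) and 45 of 60 for H3K27ac (75.0%) lay in the first 400 kb. Upstream, 5 of 14, 3 of 11 and 18 of 56 did. In steps of 100 kb the downstream GATA3 summits numbered 6, 7, 5 and 6, then 0 in the step from 400 kb to 500 kb. Beyond that point there were 1 GATA3 region at 528 kb and 3 between 702 kb and 725 kb from the gene. The BHLHE40 list had a gap of 339 kb, from 364 kb to 702 kb.

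**Figure D2:**
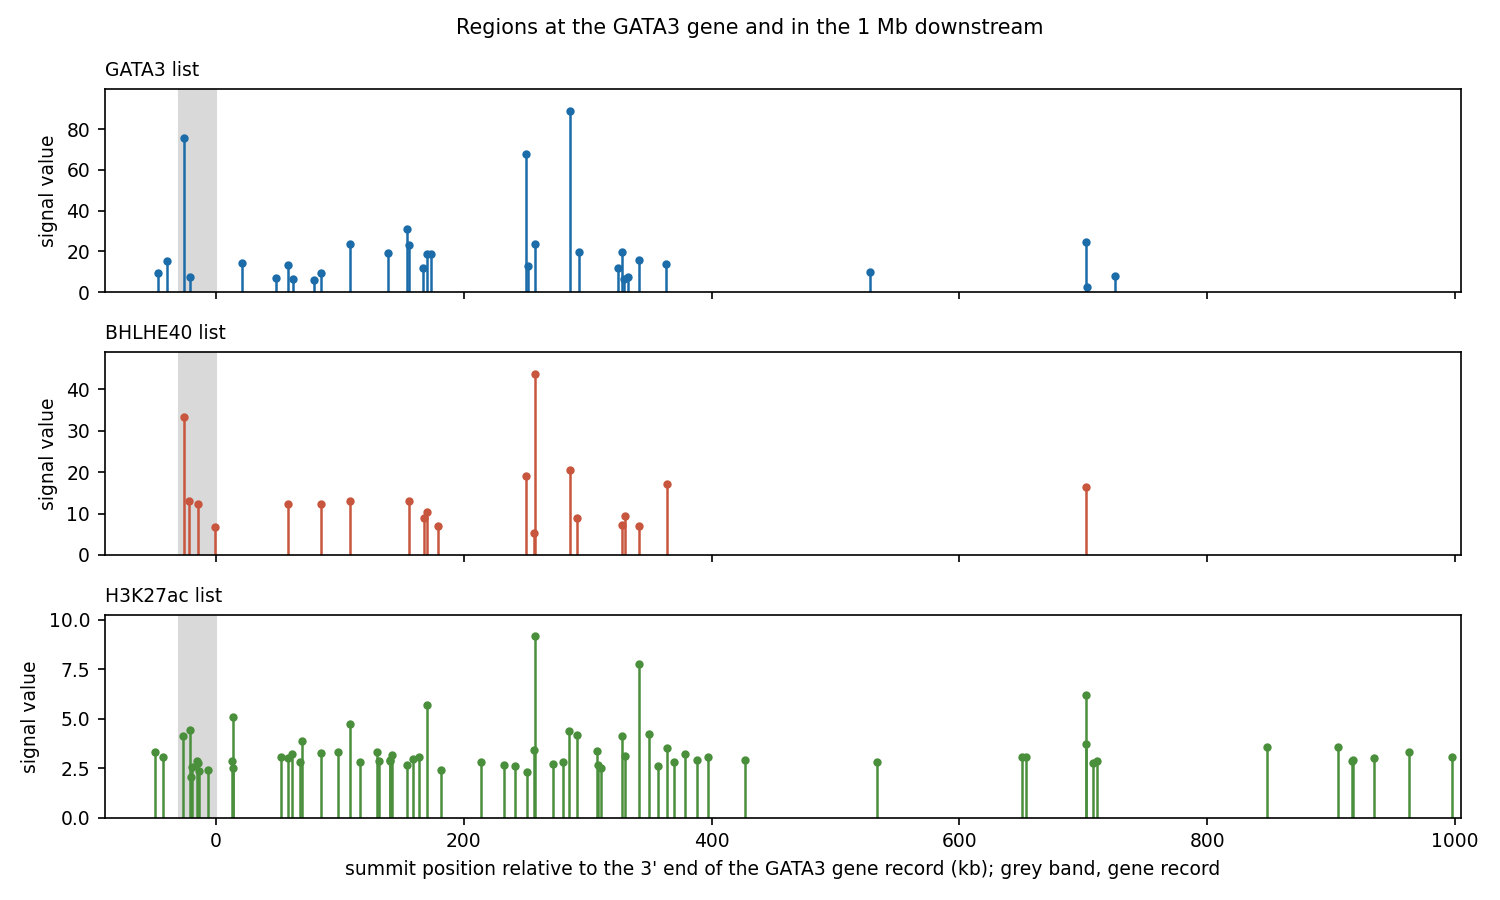
Signal value of every region at the GATA3 gene and in the 1 Mb downstream (y axis, 1 panel per list, each with its own scale) against the distance of its summit from the 3′ end of the gene record in kb. Each stem is 1 region. The tallest GATA3 stem (89.0) stands at 285 kb, the tallest BHLHE40 stem (43.8) at 257 kb, and 24 of 28 downstream GATA3 summits lie within 400 kb.

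**Figure D3:**
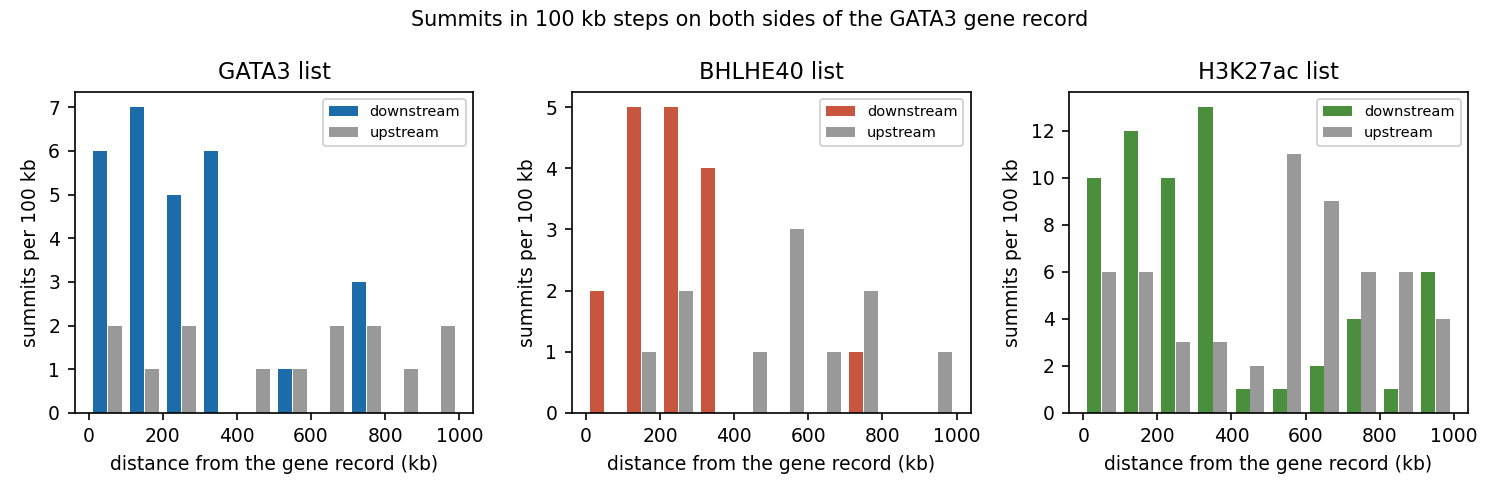
Number of summits per 100 kb (y axis) by distance from the GATA3 gene record (x axis, kb), downstream in colour and upstream in grey, for each list. Downstream GATA3 summits number 5 to 7 in each of the first 4 steps and 0 between 400 kb and 500 kb.

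The same 1 Mb window was laid beyond the 3′ end of 15518 protein-coding genes with a known strand. The median was 12 GATA3, 14 BHLHE40 and 51 H3K27ac regions, and the GATA3 gene stood at percentiles 94.1, 60.9 and 61.4. Only 257 of these windows held no protein-coding record, as the one at GATA3 does, and their medians were 2, 1 and 17. Among these the GATA3 gene stood at percentiles 98.6, 98.2 and 96.3, and PTPRC, the gene of the leukocyte protein CD45, had the most GATA3 regions, 62, and the most BHLHE40 regions, 52. Windows of neighbouring genes share regions, so these percentiles are a description.

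The strongest downstream GATA3 region, from 8360095 to 8360857, had a signal value of 89.0 and rank 363 of 29009, above the strongest region inside the gene. It lay 285 kb from the gene and overlapped a BHLHE40 region of 20.4 and an H3K27ac region of 4.38. The next, from 8325376 to 8326207 at 250 kb, had a signal value of 67.6 (rank 757), a BHLHE40 partner of 19.1 whose summit was 2 bp away, and an H3K27ac region of 2.29. The strongest downstream BHLHE40 region, from 8332096 to 8332908 at 257 kb, had a signal value of 43.8 (rank 521 of 26205). Its GATA3 partner had 23.5, below 4 other downstream GATA3 regions, and its summit was 4 bp away. This place also had the highest downstream H3K27ac value, 9.15 at 8332063 to 8332957, with a −log10 q of 114. The highest GATA3 value and the highest BHLHE40 and H3K27ac values therefore fell at different places in the stretch. Others among the 8 strongest GATA3 regions lay at 154 kb (31.1), 702 kb (24.5), 108 kb (23.4), 156 kb (rank 5385) and 293 kb (19.9). Those at 154 kb and 293 kb overlapped no BHLHE40 and no H3K27ac region. For BHLHE40 the partners at 285 kb and 250 kb were followed by regions at 364 kb (17.2), 702 kb (16.5), 108 kb (13.1), 156 kb (13.0) and 84.8 kb (12.3), all with a GATA3 partner. The next H3K27ac region in height, 7.79 at 8415964 to 8416999, also overlapped both factors.

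Overlap with BHLHE40 and overlap with H3K27ac went together among the downstream GATA3 regions, as in the whole list. BHLHE40 overlapped 14 of 28. Of those 14, 12 also overlapped H3K27ac, and their median signal value was 19.4, from 6.67 to 89.0. Of the 14 without BHLHE40, 1 overlapped H3K27ac, and their median was 10.8, from 2.73 to 31.1. The signal ranges of these classes overlap widely. In the whole list H3K27ac overlapped 10927 of 14123 GATA3 regions with BHLHE40 (77.4%) and 3322 of 14886 without (22.3%), with median signal values of 13.9 and 10.1. In pairs, the summits lay a median of 24 bp apart, from 2 to 170 bp. Among the 17 BHLHE40 regions 3 had no GATA3 partner, with signal values of 6.98, 5.40 and 9.04. The share of the whole BHLHE40 list with a GATA3 partner is not given here, so this count has no background.

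**Figure D4:**
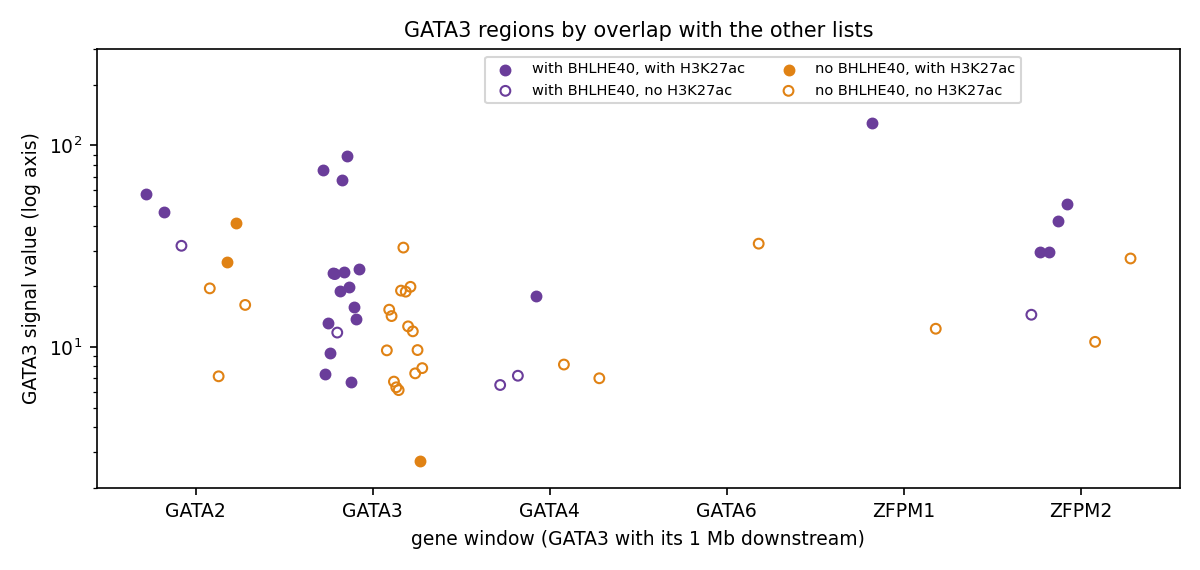
GATA3 signal value (y axis, log scale) of each of the 55 GATA3 regions by gene window (x axis), in purple where a BHLHE40 region overlaps and in orange where none does. Filled points overlap an H3K27ac region and open points do not, and the sideways spread only separates points. At the GATA3 gene with its downstream stretch, 14 of 16 purple points and 1 of 16 orange points are filled.

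GATA2, the stem and progenitor cell factor, had the densest GATA3 binding of the family. Its record spans 128479422 to 128493201 of chromosome 3 on the minus strand, and its window held 8 regions for GATA3, 7 for BHLHE40 and 11 for H3K27ac. GATA3 was strongest at 128466884 to 128467968, with a signal value of 57.5 (rank 1106). This region lay 12.1 kb beyond the 3′ end of GATA2, inside the record of DNAJB8-AS1 and over the listed start of DNAJB8, a chaperone gene. It overlapped a BHLHE40 region of 25.5. Inside the GATA2 record a GATA3 region from 128482909 to 128483569 (46.9, rank 1650) and a BHLHE40 region from 128483084 to 128483666 (43.4, rank 534) had summits 30 bp apart, with an H3K27ac region of 5.76 at 128483490 to 128483787. GATA2 is known to carry, within an intron, a blood-cell enhancer with a GATA site beside an E-box, and its position was not compared with these regions. Before the gene, GATA3 regions lay 2.39 kb (31.8) and 4.58 kb (41.0) from the record, inside GATA2-AS1. The nearer one had a BHLHE40 partner of 8.67 with its summit 12 bp away, and the farther one had none. The GATA2 start at 128493201 had a weak BHLHE40 region within 50 bases inside the gene, 6.04 at rank 21777 of 26205, and no GATA3 or H3K27ac region. GATA3 thus bound around the gene and inside it, but was not listed over either of its 2 listed starts.

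By its highest value, H3K27ac at GATA2 was low by comparison with the factors, while its density was at percentile 76.5. The median signal value of its 11 regions was 3.42, against 3.31 in the whole list. A −log10 q of 5 was reached by 3 of the 11, near the share in the whole list (28551 of 113570). These were the one above and 2 others 30.6 kb and 32.0 kb from the record. Those 2 had signal values of 4.98 and 4.38, with BHLHE40 and without GATA3. The highest H3K27ac value at GATA2 stood at percentile 33.3 of protein-coding genes, against 92.3 for GATA3 and 95.4 for BHLHE40. GATA3 regions overlapped H3K27ac in 4 of 8 cases here (whole list 49.1%) and BHLHE40 in 3 of 8 (whole list 48.7%). With 8 regions, nothing particular to GATA2 can be read from these counts.

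GATA1, the red cell factor, spans 48786590 to 48794311 of chromosome X and had no GATA3 region within 50 kb. Both of its BHLHE40 regions lay outside the gene record. The stronger, at 48800909 to 48802296 (signal value 17.3), lay over listed starts of HDAC6, a cytoplasmic deacetylase gene, with an H3K27ac region of 14.9 (rank 551 of 113570). The other lay 48.9 kb from the record, with a signal value of 7.10. None of the 3 H3K27ac regions lay in the GATA1 record or over its start. The window thus had acetylated regions on both sides of a gene with no region of any list.

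The 3 members of heart and endoderm differed from one another. GATA6 (22169589 to 22202528 of chromosome 18) had 1 GATA3 region and no other region of any list at the gene. That region, from 22169479 to 22170217, lay over the gene's start, with its summit 304 bp after it. It had a signal value of 32.5 and rank 3128 of 29009. It overlapped neither BHLHE40 nor H3K27ac, and the window of 50 kb each side had no H3K27ac region at all. Its single BHLHE40 region, 7.19, lay 19.0 kb from the record.

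GATA4 (11676935 to 11760002 of chromosome 8) had 5 GATA3 regions, but 4 of them lay beyond the gene record. The strongest, at 11802256 to 11803852 (signal value 17.9), lay inside FDFT1, the gene of squalene synthase, 43.4 kb away, with H3K27ac regions of 6.89 and 4.09. Next came 8.18 and 7.20 inside the record of NEIL2, a DNA repair gene. Inside GATA4 a GATA3 region of 6.47 and a BHLHE40 region of 9.32 shared a place, from 11736327 to 11736746, without H3K27ac. Only 1 of the 5 GATA3 regions had a score of at least 830, where 22102 of 29009 in the whole list did. The strongest BHLHE40 region, 20.6 at 11782652 to 11783470, also lay inside NEIL2. GATA5 (62463497 to 62475995 of chromosome 20) had no GATA3 region, and its 2 BHLHE40 regions, 7.40 and 5.44, lay 26.1 kb and 48.1 kb from the record. The first overlapped both H3K27ac regions of that window, 4.84 and 3.82. At neither GATA4 nor GATA5 did an H3K27ac summit fall inside the gene record.

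ZFPM1, which encodes FOG1, the partner of GATA1 in blood, held the strongest GATA3 region of all 8 loci. Its record spans 88451769 to 88537031 of chromosome 16. This region ran from 88453747 to 88457433 and reached a signal value of 129, rank 110 of 29009. Its summit lay 2426 bp after the gene's start. At 3687 bp it was also the 20th widest GATA3 region of the list. It overlapped the strongest BHLHE40 region of the family, from 88455235 to 88457578 with a signal value of 62.3, rank 192 of 26205. The summits lay 1400 bp apart, the largest distance of all 28 overlapping pairs at these loci. The H3K27ac regions under the GATA3 region numbered 4, all of modest height, 2.93 to 3.54. ZFPM1 was therefore the place of highest factor signal. The BHLHE40 summit, at 88457106, lay inside the wide GATA3 region but 1400 bp from its summit.

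The only other GATA3 region at ZFPM1, 12.3 at 88543489 to 88544009, lay 6.72 kb beyond the record. The other 5 BHLHE40 regions included a weak one, 5.11 at 88451911 to 88453202, which reached into the 250 bases before the listed start of ZFPM1. The next strongest, 17.6 at 88569759 to 88570626, lay over the start of ZC3H18, a neighbouring RNA-binding protein gene, with H3K27ac of 9.50, and one of 13.0 lay 29.3 kb from the record. The highest H3K27ac value of the window, 12.0 at 88534282 to 88534644 (rank 1294), was inside ZFPM1 near its end and overlapped neither factor. H3K27ac did not overlap the window at the listed start.

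ZFPM2, which encodes FOG2, a cofactor known from heart and gonad, spans 105318438 to 105804539 of chromosome 8 and is the longest member. All 7 GATA3 summits and all 5 BHLHE40 summits of its window lay inside the gene record. Each BHLHE40 region had a GATA3 partner, a count with no share of the whole BHLHE40 list beside it. The strongest GATA3 region, from 105524231 to 105525033, had a signal value of 51.1 (rank 1418), and its partner 11.2. The strongest BHLHE40 region, from 105520290 to 105521046, had a signal value of 39.3 (rank 692), and its GATA3 partner had 42.4 with the summit at the same base, 105520636. Another pair, at 105517787 to 105518378, had 29.7 and 16.3 with summits 34 bp apart. One at 105450135 to 105450855, had 29.7 and 18.4 with summits 2 bp apart. The 2 GATA3 regions without BHLHE40, 27.5 and 10.6, overlapped no H3K27ac either.

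The 33 H3K27ac regions of ZFPM2 had a median signal value of 3.27, near the 3.31 of the whole list. Of the 33, 4 reached a −log10 q of 5, where 28551 of 113570 in the whole list did. The highest value, 5.08 at 105646571 to 105646847, stood at percentile 28.5 of protein-coding genes, while the highest GATA3 value stood at percentile 90.5 and the highest BHLHE40 value at percentile 93.9.

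**Figure D5:**
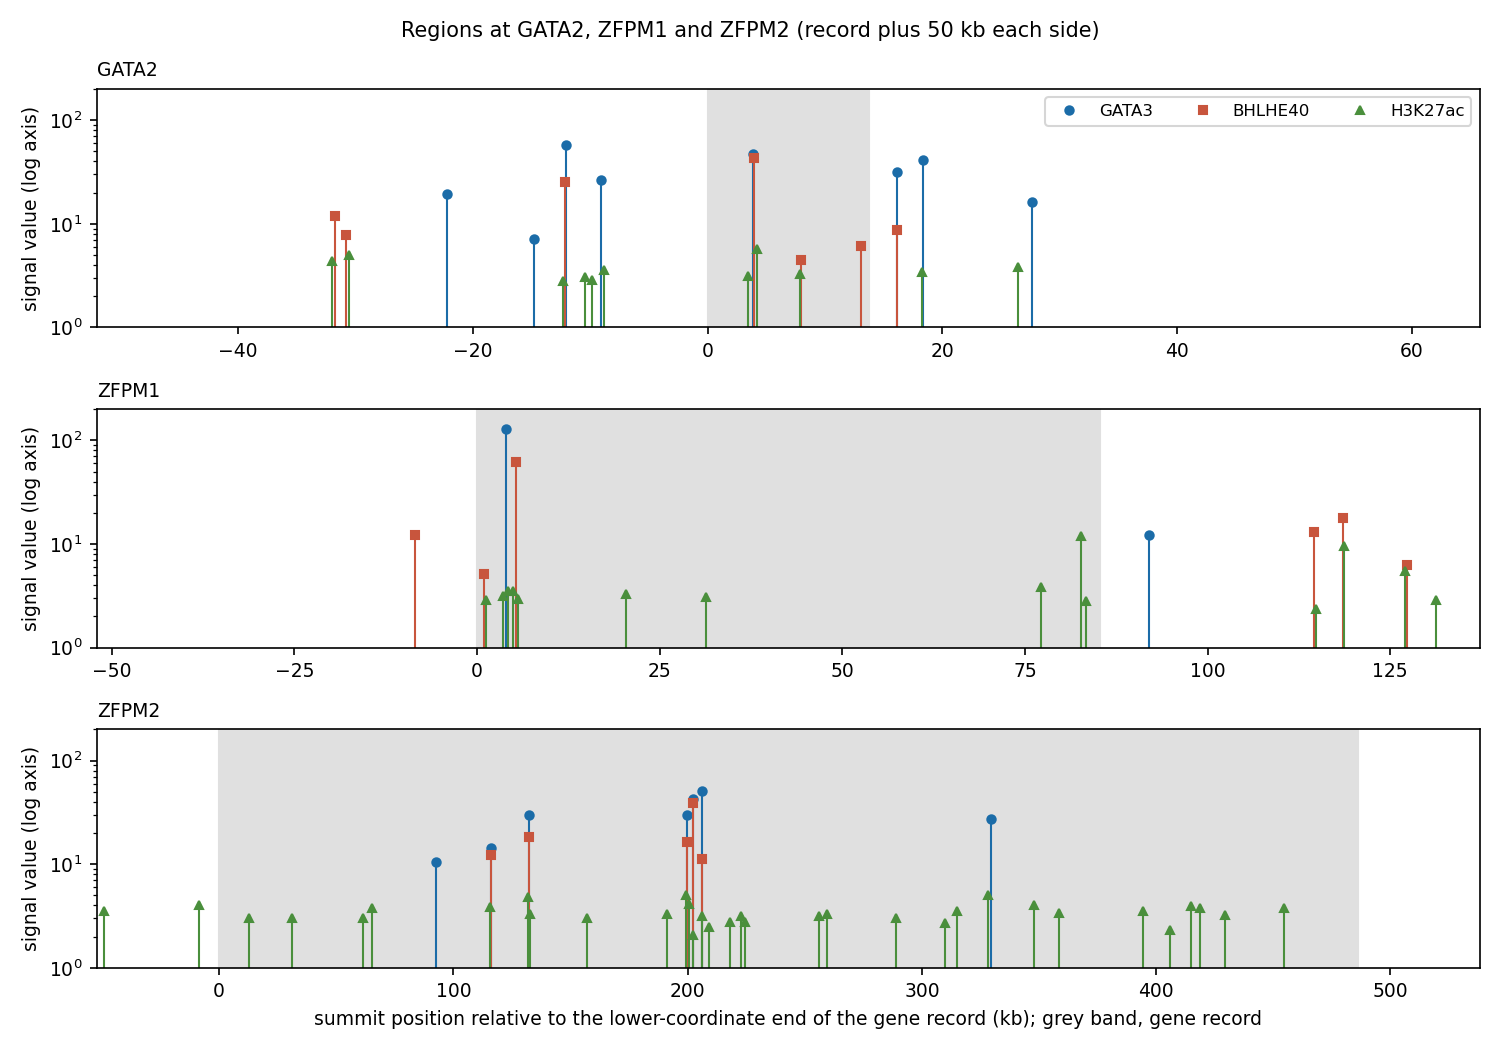
Signal value of each region (y axis, log scale) at GATA2, ZFPM1 and ZFPM2 against the distance of its summit from the lower-coordinate end of the gene record (x axis, kb, a different scale in each panel). Circles are GATA3, squares BHLHE40 and triangles H3K27ac regions. The highest point is the GATA3 region of ZFPM1 at 129, and all factor summits at ZFPM2 lie inside the gene record.

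Over listed starts, a GATA3 region was found at 2 of the 5 members with one, GATA3 and GATA6, where 20.6% of 15812 protein-coding genes had one. BHLHE40 lay over a start of 3 of the 5 (GATA2, GATA3 and ZFPM1), where 47.5% of genes did, and H3K27ac over a start of GATA3 alone, where 51.8% did. Both factors and the mark met at a start of GATA3 only. GATA3 had 6 listed starts, GATA2 had 2, and GATA1, GATA6 and ZFPM1 had 1 each. At ZFPM1 an H3K27ac region lay just outside the stretch counted, with its summit 356 bp before the start.

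Over all 8 loci, 28 of 55 GATA3 regions overlapped BHLHE40 (50.9%, 95% Wilson interval 38.1% to 63.6%), against 48.7% of the whole list. H3K27ac overlapped 25 of 55 GATA3 regions (45.5%, 33.0% to 58.5%, whole list 49.1%) and 37 of 48 BHLHE40 regions (77.1%, 63.5% to 86.7%, whole list 76.4%). These intervals cover counting only, and each includes the share in the whole list. They treat neighbouring regions as independent. The GATA3 gene with its downstream stretch gave 16 of the GATA3 regions with BHLHE40 and 16 of those without. The pooled shares of GATA3 regions therefore describe mostly that locus, and GATA1 and GATA5 gave no GATA3 region. H3K27ac overlapped 22 of the 28 GATA3 regions with BHLHE40 (78.6%, whole list 77.4%) and 3 of the 27 without (11.1%, whole list 22.3%). Summits of overlapping regions lay a median of 32 bp apart, against 35 bp over the 14123 shared GATA3 regions of the list. The median GATA3 signal value was 16.2 at these loci and 11.2 in the list, and 9 of the 55 regions (16.4%) were among the highest 10% of the list. For BHLHE40 the medians were 12.0 and 9.35, and 6 of 48 (12.5%) were among the highest 10%.

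By the percentiles of region count and highest signal value in the 3 lists, 6 values in all, the protein-coding genes most like GATA3 were GCSAM, CASR and C3orf52, at distances of 6.55, 7.99 and 11.2 percentile points. GCSAM had 6 GATA3, 4 BHLHE40 and 12 H3K27ac regions, against 6, 4 and 13 at GATA3. GCSAM and C3orf52 lie on chromosome 3 and have the same highest signal value in each list, so their windows share regions.

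The NuRD genes, whose products are brought in by FOG proteins, and the blood-cell partners of GATA factors were counted in the same way. Of 13 NuRD genes, 12 had a GATA3 region within 50 kb, with 0 at MBD3 and 7 at HDAC1, and 13 had a BHLHE40 region, against 76.3% and 80.2% of all protein-coding genes. Over their listed starts GATA3 was found at 3 of 13, BHLHE40 at 9 and H3K27ac at 9, against 20.6%, 47.5% and 51.8% of all genes. The median NuRD density was 1.48 GATA3 regions per 100 kb, against 0.993 over all genes. Of 12 partner genes, 11 had a GATA3 region and 12 a BHLHE40 region. Their median densities were 3.56 and 4.25 per 100 kb, against 0.993 and 1.63 over all genes. Of the 9 partner genes with a listed start, GATA3 lay over a start of 4, BHLHE40 of 6 and H3K27ac of 5. Nothing particular to either list can be read from the counts of genes with a region. The median densities were above those over all genes, and this difference was not tested. RUNX1, a partner transcription factor of blood cells, had the most, 33 GATA3 and 29 BHLHE40 regions, followed by FLI1 with 24 GATA3 regions. The counts of single genes in these lists were not corrected for window length, so they give no order by density. KLF1, a red cell factor, had no GATA3 region, and LMO1 had 1 region in each list. TAL1, which binds beside GATA factors in leukaemic T cells, had 5 regions of each factor.

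The label of the cells was checked against marker genes. H3K27ac at a −log10 q of 5 or more lay over the start of all 6 T-cell markers with a listed start (CD3D, CD247, CD2, CD28, LCK and ZAP70), where 47.6% of protein-coding genes had one. It lay over none of the 3 erythroid, 2 megakaryocyte, 2 B-cell, 2 myeloid and 4 heart or endoderm markers with a listed start.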

How the data were processed

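Peak lists of 3 groups with a control lentivirus (GATA3, BHLHE40 and H3K27ac, 2 samples each) were used. Per the submitters' processing notes, bcl2fastq 2.20 and MACS2 were used on the build hg38. The aligner, filters and use of input samples are not given in the sources used here. Per the labels' protocols, cells were fixed in 1% formaldehyde. Per the labels, the factor lists are at an irreproducible discovery rate of 0.05, a threshold on the repeatability of peak ranks, and the one for H3K27ac is pooled, without such a threshold. In the deposited lists the signal value is the authors' enrichment per peak, with no stated reference. The score and the −log10 q-value are also deposited values of the authors.

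A line counted where it overlapped a window by at least 1 bp. Gene records came from RefSeq GRCh38.p14, which gave no exons, so exon, intron and untranslated region were not told apart. All 8 members matched by symbol. Percentiles used protein-coding records on chromosomes 1 to 22 and X, with ties split evenly. No test was made. Named regions were the 3 of highest signal value per list and window, and 8 per factor in the downstream stretch. Members and lists were chosen with earlier results of these data known, and the comparison with downstream windows of other genes was added afterwards. Counting was tested on simulated data. The scripts ran in Python 3.11.15 with pandas 2.3.3, numpy 2.4.6, matplotlib 3.10.9 and scipy 1.17.1. Coordinates are 1-based.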

Additional observations from a re-analysis of the deposited data

How the results depend on the processing

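For 9 results 35 alternative values were computed, and 25 stayed within 1.5 times the count or within the interval of the share. Counting only the first 500 kb beyond the GATA3 gene, scaled to 1 Mb, gave 48 GATA3, 32 BHLHE40 and 92 H3K27ac regions, since most lie in that part. At a −log10 q of 5 or more the downstream stretch held 12 H3K27ac regions, and the share of regions overlapping H3K27ac was 29.1% for GATA3 and 54.2% for BHLHE40. With the summit inside an H3K27ac region the shares were 25.5% and 47.9%, and with at least 50.0% of the region covered they were 23.6% and 50.0%. Shares of the whole list at these stricter settings are not given here. The whole-list shares of 49.1% and 76.4% hold for an overlap of at least 1 bp and are no background for them. Windows of 100 kb gave all 8 members a GATA3 region, with 1 each at GATA1 and GATA5. No paired analysis was possible because both samples of a group are represented by 1 list, and leaving out a sample was not possible for the same reason. The depth is unknown, so its part in these counts was not tested.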

Other observations

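The GATA3 region over the start of GATA6 stood without BHLHE40 and H3K27ac. Among 3260 protein-coding genes with a GATA3 region over a listed start, this was so for 51 (1.56%), and 3 of those had a signal value at least as high as that of GATA6, namely RGPD8 (123), RASGRP4 (37.5) and GATA6 itself (32.5). This comparison was chosen after the values were seen.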
